A study of Mus musculus with 14 samples.

Results

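The comparison described here sets 8 KO lines against 6 WT lines across both cell types of the study, with cell type as an additive term, so that each gene gets 1 genotype effect shared by fibroblasts and neurospheres. All 14 libraries of the series enter it: 5 KO MEF lines, 3 WT MEF lines, 3 KO neurosphere lines and 3 WT neurosphere lines. The KO lines carry an H3f3a allele that the series title calls knockout-first, a design in which a cassette inserted in the gene is meant to interrupt its transcript. The labels give the genotype only as KO or WT, without zygosity, and give no treatment for any line. All were primary lines started from E13.5 mouse embryos: mouse embryonic fibroblasts (MEFs, cultured connective tissue cells) from the body after removal of head and internal organs, and neurospheres (floating cultures of neural stem and precursor cells) from the head. Transcript 3′ ends were counted by 3′ tag sequencing, 1 library per line, and such tags count a transcript at its 3′ end whatever its length.

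Histone H3.3 is the replacement form of histone H3. It is made throughout the cell cycle and put into chromatin outside DNA replication, by the HIRA complex at transcribed genes and by DAXX with ATRX at telomeres and heterochromatin. H3.1 and H3.2, the replication-coupled forms, come from clustered genes whose messages mostly end in a stem-loop without a poly(A) tail. H3f3a and H3f3b both encode H3.3, as separate genes with introns and polyadenylated messages.

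The coding sequences of both genes are shown because their tags are summed below as H3.3-coding transcripts, which holds only if both encode the same protein. H3f3a lies on the minus strand of chromosome 1 (GRCm38, GENCODE M21; gene 180800832 to 180813943, coding part of H3f3a-205 chr1:180803077-180811926). H3f3b lies on the minus strand of chromosome 11 (gene 116021912 to 116027962, coding part of H3f3b-202 chr11:116023407-116024009). Both coding sequences, taken from the GENCODE M21 transcripts, have 411 bases. The first 210 bases (70 codons) of each are printed, with capitals at the bases that differ between the genes.
H3f3a: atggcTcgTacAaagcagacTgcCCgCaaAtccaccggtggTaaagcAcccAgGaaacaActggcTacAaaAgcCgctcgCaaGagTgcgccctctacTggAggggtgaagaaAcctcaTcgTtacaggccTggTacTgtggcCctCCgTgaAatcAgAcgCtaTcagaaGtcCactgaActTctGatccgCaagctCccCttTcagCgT
H3f3b: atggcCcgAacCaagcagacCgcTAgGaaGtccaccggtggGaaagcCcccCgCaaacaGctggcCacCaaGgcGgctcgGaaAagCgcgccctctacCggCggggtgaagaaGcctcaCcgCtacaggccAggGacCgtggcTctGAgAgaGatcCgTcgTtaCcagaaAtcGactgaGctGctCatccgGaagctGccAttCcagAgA
The printed stretches differ at 48 bases. The whole coding sequences differ at 95 bases, an identity of 76.9%, and at 83 of 137 codons. Of the differing bases, 81 are at the third position of a codon, and both sequences translate to the same protein of 136 residues.

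Libraries held 1669406 to 3296178 counts assigned to genes. Summed fibroblast and mesenchyme markers stood at 23753 to 29473 CPM (tags scaled to library size and TMM factor) in KO MEFs and 23761 to 27458 CPM in WT MEFs, against 1339 to 2234 CPM in KO and 896 to 2042 CPM in WT neurospheres. Neural stem and precursor markers stood at 8506 to 12729 CPM in KO and 7271 to 10920.5 CPM in WT neurospheres, against 623 to 1277 CPM in KO and 746 to 1102 CPM in WT MEFs, so the labelled cell types carried their markers. After removal of cell type and the shared genotype effect, WT MEFs 2 and KO MEFs 3 stood apart on the first residual component. It held 28.8% of the residual variance. KO neurospheres 2 and 3 differed widely in cell cycle genes, as given below. The labels call the lines independent, but the deposited data carry numbers that 6 MEF lines share with 6 neurosphere lines of the same genotype. Y-linked reads were present or absent alike in 6 of these 6 pairs. If the numbers mark embryos, which no label states, the 14 lines come from 8 embryos, and the permutation tests on H3.3 genes are therefore also given with 1 value per number.

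H3f3a was the 1 gene whose transcript level passed the test as a shared effect of the genotype. Its level in the KO lines was 54.6-fold lower than in the WT lines (95% interval 35.9 to 82.9), and it was low in every KO line of both cell types. In MEFs it stood at 16.9, 18.8, 18.5, 7.29 and 15.1 CPM in the 5 KO lines, against 847, 1427 and 855 CPM in the 3 WT lines. In neurospheres it stood at 59.1, 70.9 and 26.3 CPM in the 3 KO lines, against 2417, 2082 and 1970.0 CPM in the 3 WT lines. The highest KO line of all, KO neurospheres 2, was thus far below the lowest WT line, WT MEFs 1. Means were 15.3 ± 4.73 CPM (SD, n = 5) in KO MEFs and 1043 ± 332 CPM (n = 3) in WT MEFs, and 52.1 ± 23.1 CPM in KO and 2156 ± 233 CPM in WT neurospheres (n = 3 each). The KO level was 1.47% of the WT level in MEFs and 2.42% in neurospheres. By the edgeR quasi-likelihood test the shared log2 difference was -5.77 (SE 0.28, adjusted p = 3.85e-08). An exact two-sided permutation of the genotype within each cell type gave p = 0.000893, the smallest that its 1120 arrangements allow, and with 1 value for each of the 8 numbers p = 0.0179, again the smallest possible. The KO levels rest on 203 counts over the 5 KO MEF libraries and 336 over the 3 KO neurosphere libraries, against 8905 and 16310 in the WT MEF and WT neurosphere libraries. They count transcripts that reach the 3′ end of the gene, and transcripts that end upstream were not measured.

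H3f3b, the other gene for H3.3, did not differ detectably in the shared comparison. In MEFs it stood at 1376, 1541, 2202, 1119 and 1289 CPM in the KO lines, against 1443, 1879.9 and 1249.8 CPM in the WT lines. In neurospheres it stood at 2438, 2003 and 2013 CPM in the KO lines, against 2364, 1718 and 1708 CPM in the WT lines. KO and WT lines overlapped in both cell types, with KO MEFs 3 and WT MEFs 2, the lines that stood apart, as the highest of their groups. The shared log2 difference was 0.06 (SE 0.16, edgeR adjusted p = 1.00), and its 95% interval ran from 0.822-fold to 1.32-fold of the WT level. The exact permutation within cell type gave p = 0.75, and p = 0.839 with 1 value per number. The log2 difference was -0.03 without KO MEFs 3 and -0.02 in MEFs alone. A change within that interval was not detectable with this number of lines.

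Both genes together gave 1393, 1559, 2220.1, 1127 and 1304 CPM in KO MEFs, against 2290.3, 3307 and 2105 CPM in WT MEFs, where KO MEFs 3 lay above WT MEFs 3. In neurospheres the sum was 2497, 2074 and 2039 CPM in the KO lines, against 4782, 3799.8 and 3678 CPM in the WT lines, without overlap. The KO mean of the sum was 59.2% of the WT mean in MEFs and 53.9% in neurospheres. The shared log2 difference of the sum was -0.82 (exact two-sided permutation within cell type, p = 0.00268; p = 0.0179 with 1 value per number, the smallest possible). H3f3a supplied 1.01% ± 0.258 of the H3.3-coding tags in KO MEFs and 40.3% ± 3.10 in WT MEFs. In neurospheres its share was 2.36% ± 1.07 in KO and 53% ± 2.18 in WT lines (SD over lines). Within cell type the share was lower in KO by 44.3 percentage points on average (difference -44.3, exact permutation p = 0.000893, and p = 0.0179 with 1 value per number, both the smallest possible). The share restates the loss of H3f3a, and the sum includes the same H3f3a values, so neither is a result separate from it.

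**Figure D1:**
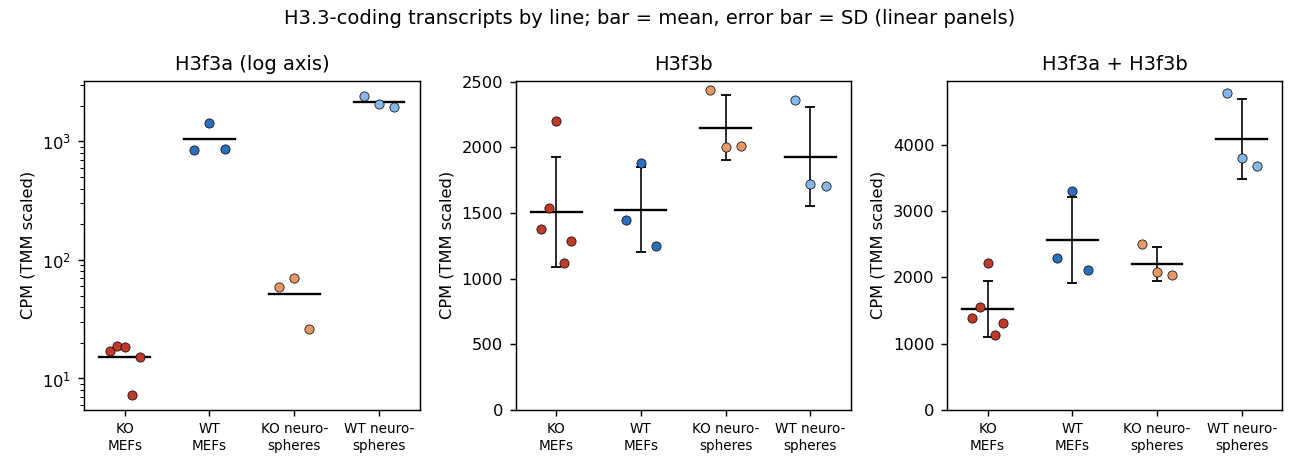
CPM of H3f3a (logarithmic axis), H3f3b and their sum (linear axes) in each line, with 1 point per line, the group mean as a bar and the SD as an error bar in the linear panels. H3f3a is at 7.29 to 70.9 CPM in the 8 KO lines and at 847 CPM or more in the 6 WT lines, while the H3f3b points of KO and WT overlap in both cell types.

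Beyond H3f3a, no gene passed an adjusted p of 0.05 among the 12113 genes tested, so 1 gene was called lower (0.00826%) and 0 genes higher. At an unadjusted p under 0.05 there were 268 genes (2.21%), with 114 higher (0.941%) and 154 lower (1.27%), where p-values spread evenly would give 606. DESeq2 likewise called 1 gene, H3f3a, and placed 317 below that unadjusted threshold. The 5 KO and 3 WT MEF lines alone, and the 6 neurosphere lines alone, each gave H3f3a as the only call (0.00927% of 10785 genes and 0.00941% of 10624 genes), and the neurosphere call was lost without WT neurospheres 2 or KO neurospheres 1. All other genes named have an adjusted p of 1.00 in the shared edgeR test; they are described by their values and their unadjusted p, and none is a call.

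The MEF and neurosphere lines share no library, so the effects fitted in each cell type on its own can be set side by side. Among 9461 genes measured in both, 4684 (49.5%) had the same sign. Across genes, which are not independent replicates and share their libraries, the log2 differences of MEFs and neurospheres had a Pearson r of 0.035, and of 0.0075 without H3f3a (Spearman rho -0.0038). There were 4 genes with an unadjusted p under 0.05 in both fits, and 2 of these had the same sign: H3f3a and Hist2h3c1, both with lower values in KO. The other two had opposite signs: Gnai1, described below, and Lypla2, a lysophospholipase gene, with log2 values of -0.59 in MEFs and 0.93 in neurospheres.

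**Figure D2:**
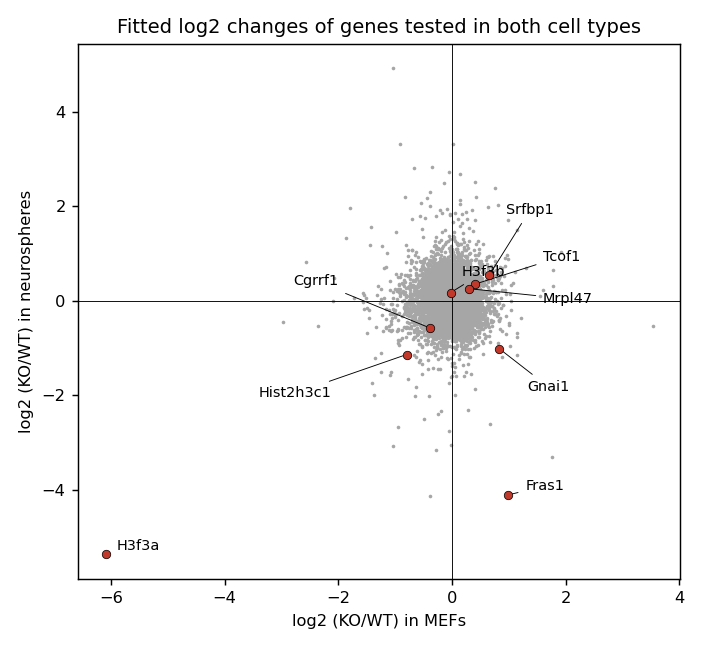
Each point is 1 of 9461 genes, with the log2 KO/WT ratio fitted in MEFs on the horizontal axis and in neurospheres on the vertical axis. H3f3a stands alone at -6.09 and -5.37, and the remaining genes form a cloud around 0 with no common direction (r = 0.0075 without H3f3a).

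A stricter description asks whether every KO line lies on one side of every WT line in both cell types. This held for 5 genes (0.0413% of those tested): H3f3a and Cgrrf1 with KO lower (2 genes, 0.0165%), and Srfbp1, Tcof1 and Mrpl47 with KO higher (3 genes, 0.0248%). In MEFs alone 225 genes (1.86%) and in neurospheres alone 847 genes (6.99%) were separated in this way. With so few lines per group, lines can separate without any effect of the genotype. If the lines of a cell type were exchangeable, each of the 1120 arrangements of the genotype labels would be equally likely. A gene without tied values would then separate with KO lower at a rate of 0.000893, a fraction and not a percentage. The rate for KO higher would be the same. The observed 0.0165% lower and 0.0248% higher both lie below it. Srfbp1, Tcof1, Mrpl47 and Cgrrf1 are thus no more than exchangeable labels would give. The labels were not shuffled gene by gene.

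Srfbp1 encodes a protein that binds serum response factor. In MEFs Srfbp1 stood at 29.3, 19.9, 23.3, 33 and 27.9 CPM in the KO lines, against 14.7, 17.3 and 18.6 CPM in the WT lines. Neurosphere values were 12.8, 12.6 and 17.2 CPM in the KO lines, against 11.9, 11.2 and 6.76 CPM in the WT lines. The lowest KO line lay above the highest WT line in both cell types, by a small margin. Srfbp1 had a shared log2 value of 0.60 (SE 0.18, 95% interval 0.22 to 0.99, unadjusted p = 0.00474).

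Tcof1 encodes treacle, a nucleolar protein needed for ribosomal RNA synthesis. In MEFs Tcof1 stood at 64.9, 85.7, 72.9, 77.7 and 66.4 CPM in the KO lines, against 55.2, 53.2 and 57.6 CPM in the WT lines. Neurosphere values were 22.7, 19.2 and 19.3 CPM in the KO lines, against 11.9, 17.3 and 19.2 CPM in the WT lines. Tcof1 had a shared log2 value of 0.38 (SE 0.13, 95% interval 0.10 to 0.66, unadjusted p = 0.0114). In neurospheres KO neurospheres 2 and WT neurospheres 3 were almost level.

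Mrpl47 encodes a protein of the mitochondrial ribosome. In MEFs Mrpl47 stood at 44.5, 44.9, 37.9, 40.6 and 39.2 CPM in the KO lines, against 35.7, 29.9 and 35.1 CPM in the WT lines. Neurosphere values were 26.4, 24.6 and 28.7 CPM in the KO lines, against 19.5, 24.3 and 23.8 CPM in the WT lines. Mrpl47 had a shared log2 value of 0.28 (SE 0.12, 95% interval 0.03 to 0.53, unadjusted p = 0.0331). It overlaps Ndufb5, a respiratory chain complex I subunit gene on the opposite strand, whose shared log2 value was -0.22. The kit marks strand, but whether the authors' counting used it is not given in the sources used here.

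Cgrrf1 encodes a RING finger protein of the ubiquitin ligase type. In MEFs Cgrrf1 stood at 13.8, 14, 12.1, 13.9 and 12.5 CPM in the KO lines, against 16.3, 18 and 17.7 CPM in the WT lines. Neurosphere values were 7.44, 7.82 and 7.35 CPM in the KO lines, against 9.57, 11.7 and 12.8 CPM in the WT lines. Cgrrf1 had a shared log2 value of -0.47 (SE 0.15, 95% interval -0.79 to -0.15, unadjusted p = 0.00712). Its levels were low in every line.

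**Figure D3:**
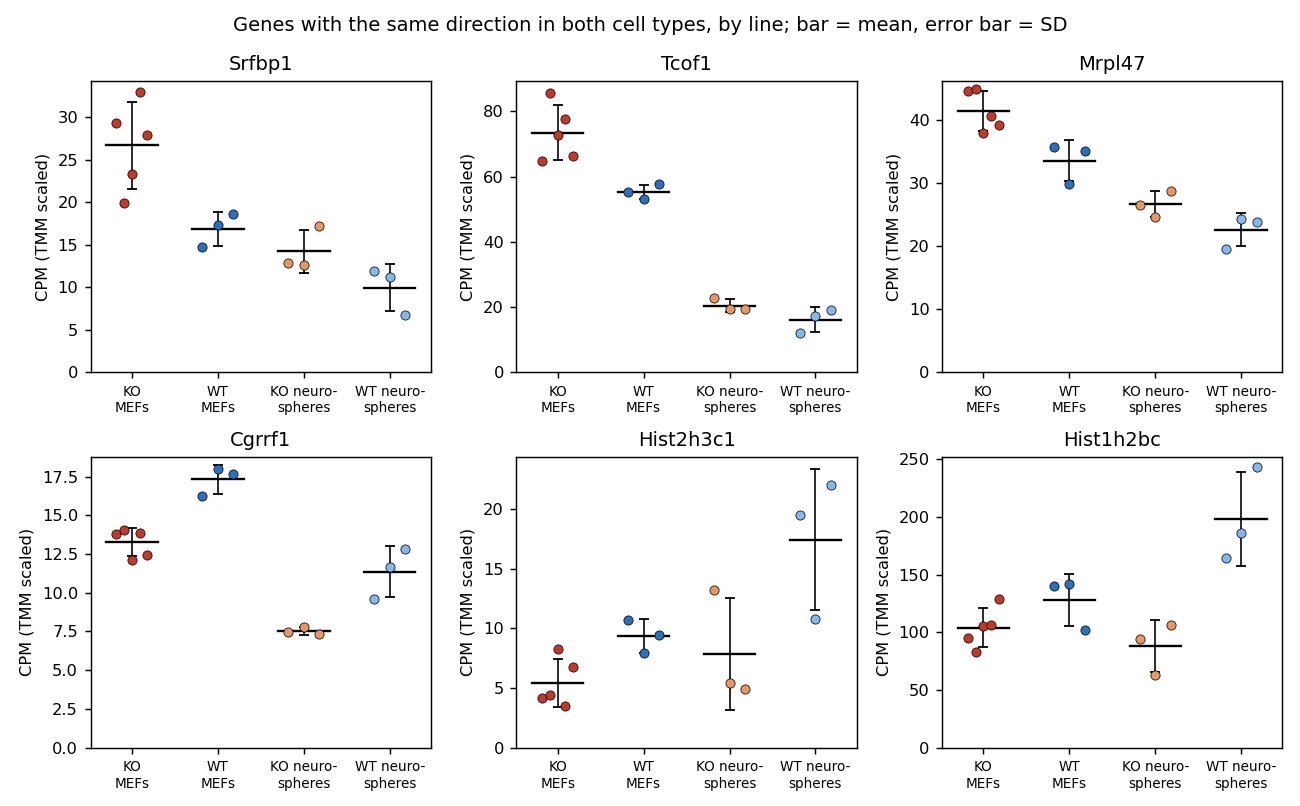
CPM per line of the 4 genes beyond H3f3a whose KO and WT lines do not overlap in either cell type (Srfbp1, Tcof1, Mrpl47, Cgrrf1), and of Hist2h3c1 and Hist1h2bc. Points are lines, bars are means and error bars SD; Srfbp1, for example, averages 26.7 ± 5.14 CPM in KO MEFs and 16.9 ± 1.99 CPM in WT MEFs, while Hist1h2bc overlaps in MEFs.

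Further genes were among the 10 with the smallest unadjusted p in each direction. Lactb2 encodes a metallo-beta-lactamase domain protein that acts as a ribonuclease in mitochondria. In MEFs Lactb2 stood at 39, 30.8, 35.9, 43.4 and 48.3 CPM in the KO lines, against 30.2, 23 and 29.9 CPM in the WT lines. Neurosphere values were 19.8, 21.6 and 18.2 CPM in the KO lines, against 11.5, 13.1 and 18.5 CPM in the WT lines. Lactb2 had a shared log2 value of 0.49 (SE 0.16). KO neurospheres 3 lay just below WT neurospheres 3, so that the groups overlapped.

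Cep85l, a centrosomal protein gene, showed a similar picture. In MEFs Cep85l stood at 15.2, 15.1, 14.6, 18.4 and 18.5 CPM in the KO lines, against 8.73, 6.83 and 14.6 CPM in the WT lines. Neurosphere values were 33.1, 48.1 and 19.96 CPM in the KO lines, against 23, 19.2 and 18.5 CPM in the WT lines. Cep85l had a shared log2 value of 0.71 (SE 0.22). KO MEFs 3 was level with WT MEFs 3, KO neurospheres 3 lay below WT neurospheres 1, and Cep85l shares its strand with an overlapping predicted gene, between which tags may be split.

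Tspan18, a tetraspanin gene, was low in all lines and too low in neurospheres to be tested there. In MEFs Tspan18 stood at 9.32, 8.57, 4.37, 9.02 and 6.79 CPM in the KO lines, against 3.17, 3.24 and 4.88 CPM in the WT lines. Neurosphere values were 1.65, 1.8 and 1.4 CPM in the KO lines, against 0, 0.467 and 0 CPM in the WT lines. Its log2 value in the fit of both cell types was 1.44 (SE 0.45), and 1.00 in MEFs alone. Only KO MEFs 3 lay among the WT MEF lines.

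On the lower side, Hist2h3c1 encodes the replication-coupled histone H3.2. In MEFs Hist2h3c1 stood at 4.14, 4.45, 8.26, 3.47 and 6.79 CPM in the KO lines, against 10.7, 7.91 and 9.45 CPM in the WT lines. Neurosphere values were 13.2, 5.41 and 4.9 CPM in the KO lines, against 19.5, 10.7 and 22 CPM in the WT lines. Hist2h3c1 had a shared log2 value of -0.96 (SE 0.29, 95% interval -1.58 to -0.33, unadjusted p = 0.00529). KO and WT lines overlapped in both cell types, and near-identical copies of this gene (Hist2h3b, Hist2h3c2) make the assignment of its tags uncertain.

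Tprkb encodes a subunit of the KEOPS complex, which modifies transfer RNA. In MEFs Tprkb stood at 23.1, 21.2, 26.7, 21.2 and 24.5 CPM in the KO lines, against 30.2, 27 and 46.1 CPM in the WT lines. Neurosphere values were 88, 81.8 and 49.7 CPM in the KO lines, against 119, 109 and 82.8 CPM in the WT lines. Tprkb had a shared log2 value of -0.54 (SE 0.17). MEF groups did not overlap, and in neurospheres KO neurospheres 1 lay above WT neurospheres 3.

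Ift122, a subunit of the transport complex of cilia, had lower means in KO in both cell types. In MEFs Ift122 stood at 4.83, 2.74, 4.37, 3.82 and 5.66 CPM in the KO lines, against 3.57, 10.4 and 10.1 CPM in the WT lines. Neurosphere values were 9.09, 16.2 and 7.7 CPM in the KO lines, against 17.6, 23.8 and 17.4 CPM in the WT lines. Ift122 had a shared log2 value of -0.88 (SE 0.27). KO and WT overlapped in MEFs through WT MEFs 1 and were separated in neurospheres.

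Pdcd4 encodes an inhibitor of translation initiation. In MEFs Pdcd4 stood at 33.8, 20.2, 60.7, 26.4 and 34.7 CPM in the KO lines, against 46, 57.9 and 37.2 CPM in the WT lines. Neurosphere values were 178, 104 and 135 CPM in the KO lines, against 308, 265 and 324 CPM in the WT lines. Pdcd4 had a shared log2 value of -0.74 (SE 0.23). The separation was complete in neurospheres, while KO MEFs 3 was the highest of all MEF lines.

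Cdh6, a cadherin gene of the nervous system and kidney, had means of 10.3 ± 4.16 CPM in KO MEFs and 16.6 ± 3.37 CPM in WT MEFs, and of 30.7 ± 13.6 CPM in KO and 54 ± 11.1 CPM in WT neurospheres. Cdh6 had a shared log2 value of -0.74 (SE 0.23), and its KO and WT lines overlapped in both cell types. Trim41, a ubiquitin ligase gene, had means of 18.4 ± 2.97 CPM in KO MEFs and 30.7 ± 2.96 CPM in WT MEFs. In neurospheres its means were 31.9 ± 6.66 CPM in KO and 36.8 ± 3.69 CPM in WT lines. Trim41 had a shared log2 value of -0.50 (SE 0.16).

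Of the 20 genes with the smallest unadjusted p, 7 were too low in MEFs to be tested there, so that their value in the shared fit is a neurosphere value and not a shared one. Sox1, a transcription factor of neural precursors, stood at 179, 353 and 45.9 CPM in KO and 78.9, 37.8 and 65.1 CPM in WT neurospheres, and at 0 in 7 of 8 MEF lines. Dbx2, a homeobox gene of the neural tube, stood at 197, 186 and 127 CPM in KO and 6.51, 89.2 and 36.3 CPM in WT neurospheres. B3galt2, a galactosyltransferase gene, stood at 40.5, 69.1 and 39.6 CPM in KO and 14.6, 23.4 and 27.4 CPM in WT neurospheres. The KO lines lay above the WT lines for Dbx2 and B3galt2, and overlapped them for Sox1.

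Pcdh15, a protocadherin gene, stood at 151, 281 and 3.5 CPM in KO and 6.89, 21.5 and 9.95 CPM in WT neurospheres, with KO neurospheres 3 below all WT lines. Gpr37l1, a receptor gene of glial cells, stood at 169.8, 242 and 8.05 CPM in KO and 13, 43.4 and 9.6 CPM in WT neurospheres, again with KO neurospheres 3 at the bottom. When WT neurospheres 2 and KO neurospheres 3 were both left out, an alternative added with the data in view, Gpr37l1 passed (log2 3.94, edgeR adjusted p = 0.0253). These are the highest WT and the lowest KO neurosphere line for Gpr37l1. Leaving them out widens its difference by construction, so that pass is no support for it. Meig1, a gene known for its part in spermatogenesis, stood at 12, 16.2 and 3.85 CPM in KO and 2.68, 1.4 and 2.49 CPM in WT neurospheres. Rragd, a GTPase gene of amino acid signalling to mTORC1, stood at 60.7, 36.7 and 33.6 CPM in KO and 67.8, 121 and 76.1 CPM in WT neurospheres, and at no more than 2.88 CPM in any MEF line. Astrocyte markers, a list of 10 genes, summed to 5778 to 9189 CPM in KO and 9850.4 to 11216 CPM in WT neurospheres. The list had no common direction: 6 of its 9 tested members had positive shared values, 3 had negative ones, 0 passed, and the median was 0.02. Sparcl1, the most abundant member, averaged 3076 ± 2350.0 CPM in KO and 6581 ± 3287 CPM in WT neurospheres (log2 -0.57). The part of these markers in the values above was not tested.

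The gene lists are described by their counts and medians beside those of all 12113 genes, of which 49.6% had a positive log2 value and whose median was -0.0025. The proteins that handle H3.3 came first. All 9 genes of the HIRA, DAXX and ATRX groups were tested, 0 passed in either direction, and 8 of 9 had a 95% interval inside a 2-fold change, the exception being Hirip3. Their shared log2 values ran from -0.19 to 0.28 with a median of 0.03. The median turned to -0.02 without KO MEFs 3. Cabin1, a partner of the HIRA complex, had the smallest p of the list. In MEFs Cabin1 stood at 21.8, 17.1, 20.9, 19.1 and 21.1 CPM in the KO lines, against 20.2, 12.9 and 21 CPM in the WT lines. Neurosphere values were 56.2, 48.7 and 31.9 CPM in the KO lines, against 37.1, 33.2 and 29.5 CPM in the WT lines. Cabin1 had a shared log2 value of 0.28 (SE 0.17). Ubn1, a HIRA complex subunit, had a log2 value of -0.19 (SE 0.12), and Asf1a, which hands histones to HIRA, one of 0.22 (SE 0.20).

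Among 16 replication-coupled chaperones and FACT subunits, 12 values were positive and 0 genes passed, with a median of 0.10. Without KO neurospheres 3 the median was -0.11. Nasp, Nap1l1 and Set, which bind free histones, had log2 values of 0.24 (SE 0.20), 0.21 (SE 0.17) and 0.17 (SE 0.16).

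Histone genes with polyadenylated transcripts had mostly lower values in KO. Of 20 such genes 18 were tested, 12 had negative values, and the median was -0.36. None passed; 4 of the 18 had an unadjusted p under 0.05, all with lower values in KO, where 1.27% of all genes did. Leaving out single libraries moved the median between -0.42 and -0.23, and it was -0.23 without WT MEFs 2. Hist1h2bc encodes an H2B histone. In MEFs Hist1h2bc stood at 95.3, 83.3, 105, 107 and 129 CPM in the KO lines, against 140.1, 142 and 102 CPM in the WT lines. Neurosphere values were 94.6, 63.1 and 106 CPM in the KO lines, against 164, 186 and 243 CPM in the WT lines. Hist1h2bc had a shared log2 value of -0.69 (SE 0.19, 95% interval -1.10 to -0.28, unadjusted p = 0.0025). The neurosphere groups were separated and the MEF groups overlapped. Hist3h2a encodes an H2A histone. In MEFs Hist3h2a stood at 29.7, 32.2, 24.8, 27.4 and 26.4 CPM in the KO lines, against 32.9, 30.2 and 37.2 CPM in the WT lines. Neurosphere values were 61.6, 43.9 and 70.7 CPM in the KO lines, against 105, 91.1 and 81.1 CPM in the WT lines. Hist3h2a had a shared log2 value of -0.43 (SE 0.14). Neurospheres were separated again. Its tags may be shared with Trim17, which overlaps it on the same strand. Hist1h2ac, another H2A gene, stood at 7.85, 1.2 and 3.5 CPM in KO and 18.8, 17.8 and 27.7 CPM in WT neurospheres and was below 10 CPM in every MEF line. Hist1h1c, a linker histone gene and the last of the 4, had a shared log2 value of -0.45. The median of the members measured in MEFs was -0.10 and that of those measured in neurospheres -0.23. The replacement genes H2afz and H2afy and the centromeric Cenpa, members of the same list, had shared log2 values of 0.02, 0.06 and 0.09.

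Enzymes that write or erase marks on histone H3 gave values close to 0. Of 11 PRC2 and H3K27 demethylase genes tested, 9 had negative values, with a median of -0.08 and a range of -0.13 to 0.13; 10 of 11 intervals lay inside 2-fold. For 17 PRC1 genes the median was -0.01, for 12 H3K36 genes 0.00, for 18 H3K4 genes 0.04, for 18 H3K9 and heterochromatin genes 0.01, and for 12 DNA methylation and TET genes -0.01. None of these genes passed, and apart from PRC2 the sign of each of these medians depended on single libraries. The PRC2 median was -0.08 in MEFs and 0.02 in neurospheres. Of the 9 PRC2 list members measured in both cell types, 2 were negative in both and 0 positive in both. The unadjusted p was under 0.05 for Smyd2 (1 of 12 H3K36 genes), Ash2l (1 of 18 H3K4 genes) and Setdb1 (1 of 18 H3K9 genes). In the PRC2, PRC1 and DNA methylation lists it was so for 0 genes, and over all genes for 2.21%. The 3 values were positive, too few to be read as a direction, and the sign for Ash2l reversed with TPM. Setdb1 is the H3K9 methyltransferase of retroelement silencing. In MEFs Setdb1 stood at 23.1, 29.5, 35.9, 27.1 and 27.5 CPM in the KO lines, against 25.4, 17.6 and 25 CPM in the WT lines. Neurosphere values were 28.1, 72.1 and 41.3 CPM in the KO lines, against 36, 29 and 22.4 CPM in the WT lines. Setdb1 had a shared log2 value of 0.49 (SE 0.21). KO and WT overlapped in both cell types. Smyd2, a lysine methyltransferase gene, had a log2 value of 0.37 (SE 0.16), and Ash2l, a core subunit of H3K4 methyltransferase complexes, one of 0.24 (SE 0.11). Nsd1, an H3K36 methyltransferase gene, had one of -0.27 (SE 0.13).

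Cell cycle lists depended on single neurosphere lines. S phase genes had positive values in 21 of 24 members (median 0.19) and G2 and M phase genes in 26 of 30 (median 0.12), with 0 passing in either list. Summed S phase genes stood at 414, 343 and 1530.4 CPM in KO and 331, 576 and 831 CPM in WT neurospheres. The sum of the G2 and M phase genes was 733, 136 and 3372 CPM in KO and 483, 1409.9 and 1916 CPM in WT neurospheres. KO neurospheres 3 was thus the highest, and KO neurospheres 2 among the lowest. Without KO neurospheres 3 the medians were -0.15 for S phase and -0.43 for G2 and M phase, and without WT neurospheres 1 they were 0.09 and -0.01. Mcm6, a subunit of the replicative helicase, stood at 21.1, 30.1 and 113 CPM in KO and 12.3, 26.6 and 39.5 CPM in WT neurospheres, with log2 0.43 over both cell types and -0.04 without KO neurospheres 3.

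Among p53 target genes, 13 of 22 values were positive (median 0.03, 0 passing; -0.0029 without WT MEFs 2). Trp53inp1, a p53-induced gene of autophagy and cell death, had a log2 value of -0.46 (SE 0.19), and Polk, a DNA polymerase that copies past lesions, one of 0.42 (SE 0.20). DNA damage and telomere genes had a median of 0.05 over 19 members, and -0.12 without KO neurospheres 3.

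Respiratory chain genes encoded in the nucleus were all measured with narrow error. All 45 had a 95% interval inside 2-fold, 34 values were negative, and the median was -0.06, with 0 passing. Without KO neurospheres 2 or WT neurospheres 3 the median was 0.01. Cox6c, a complex IV subunit, had a log2 value of -0.26 (SE 0.15), and Ndufa5, of complex I, one of -0.26 (SE 0.16). Cytosolic ribosomal protein genes had 33 of 43 values positive, all 43 intervals inside 2-fold and a median of 0.05, which was -0.03 without WT MEFs 2 and -0.04 without KO neurospheres 3.

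Interferon-stimulated genes and macrophage genes had mostly lower values in KO, and both rested on MEF lines. Of 20 interferon-stimulated genes tested, 19 had negative values (median -0.48), 0 passed, and the median was 0.16 without WT MEFs 2. Rtp4, such a gene, stood at 5.18, 6.51, 4.86, 1.73 and 2.64 CPM in KO MEFs, against 1.98, 47.8 and 6.4 CPM in WT MEFs, where WT MEFs 2 alone was high. All 11 macrophage, microglia and blood markers tested had negative values (median -1.04, and -0.54 without WT MEFs 2), with 0 passing. Lyz2, the lysozyme of myeloid cells, stood at 47, 47.3, 7.29, 13.2 and 18.5 CPM in KO MEFs, against 46.4, 98.2 and 31.1 CPM in WT MEFs. Laptm5, a lysosomal protein gene of blood cells, stood at 3.8, 10.3, 2.43, 1.73 and 1.51 CPM in KO MEFs, against 7.94, 18 and 11.9 CPM in WT MEFs. The whole list of 19 markers summed to 108, 149, 24.3, 26 and 49.4 CPM in KO MEFs, against 103, 269 and 107 CPM in WT MEFs, with 2 KO lines inside the WT range, and to at most 3.74 CPM in any neurosphere line. In bulk samples, fewer cells of a type and less RNA per cell cannot be told apart.

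Genes on chromosome 1 within 5 Mb of H3f3a had mostly higher values in KO. Of 114 such genes 53 were tested, 42 had positive values, and the median was 0.14, between 0.11 and 0.20 with single libraries left out. None passed, and 1 had an unadjusted p under 0.05, the vomeronasal receptor gene Vmn1r1 (log2 0.58, SE 0.24). Of these genes 22 were positive in both cell types among the 50 measured in both, where 5 were negative in both. Over all 9461 genes measured in both, 2384 were positive in both and 2300 negative in both. The median was 0.03 in MEFs and 0.22 in neurospheres. Hnrnpu, an abundant RNA-binding nuclear protein gene, had means of 907 ± 61.9 CPM in KO and 839 ± 78.1 CPM in WT MEFs. In neurospheres it averaged 762 ± 127 CPM in KO and 638 ± 5.27 CPM in WT lines. Hnrnpu had a shared log2 value of 0.18 (SE 0.10). Sccpdh had a log2 value of 0.21 (SE 0.12). Whether the KO and WT lines differ in strain background around the targeted gene is not given in the sources used here, and its part in these values was not tested.

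**Figure D4:**
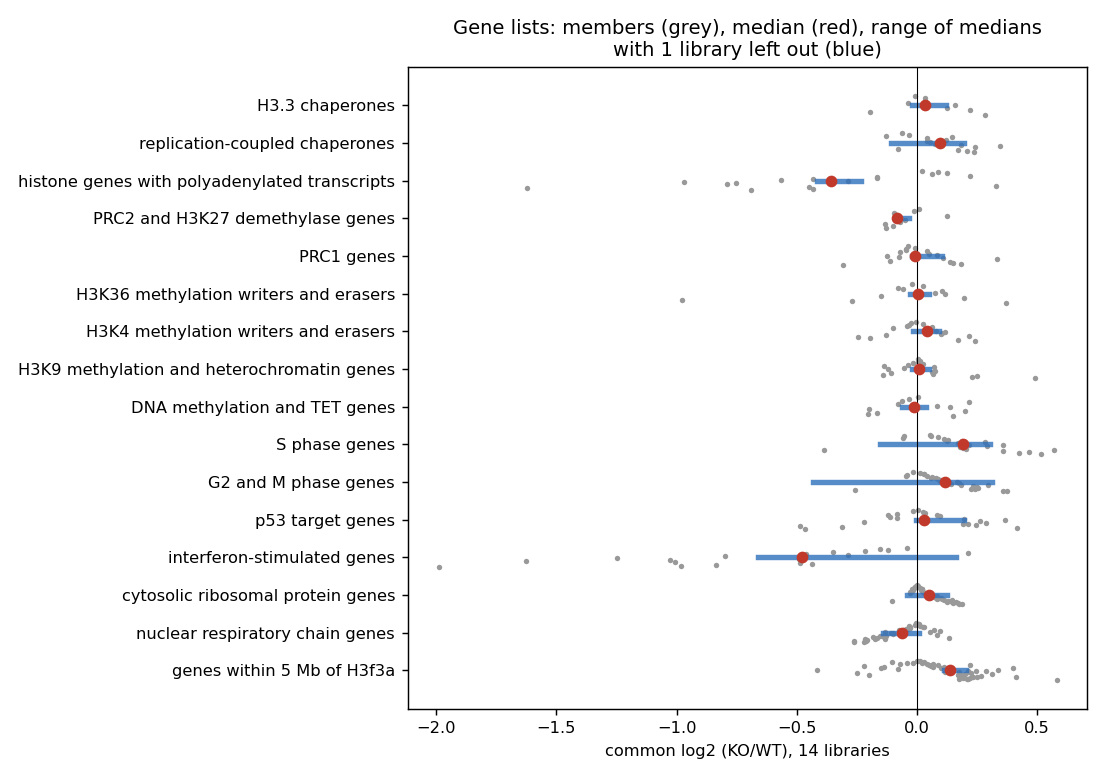
Shared log2 KO/WT values of the tested members (grey), their median (red) and the range of that median when 1 library is left out (blue), for 16 of the gene lists. The median of polyadenylated histone genes (-0.36) and that of genes within 5 Mb of H3f3a (0.14) keep their sign, while those of S phase, G2 and M phase and interferon-stimulated genes cross 0.

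The size of a shared change that these 14 libraries can speak to depends on the level of the gene. Of the 12113 genes, 8393 (69.3%) had a 95% interval that lay wholly inside a 2-fold change in either direction. Only 9461 of the 12113 were measured in both cell types. The rest were too low for the separate fit of at least 1 cell type, so their interval may rest on the other alone. The median half-width of the interval was 0.54 on the log2 scale, and 0.36 among the 3957 genes with at least 50 CPM, of which 3525 had an interval inside 2-fold.

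**Figure D5:**
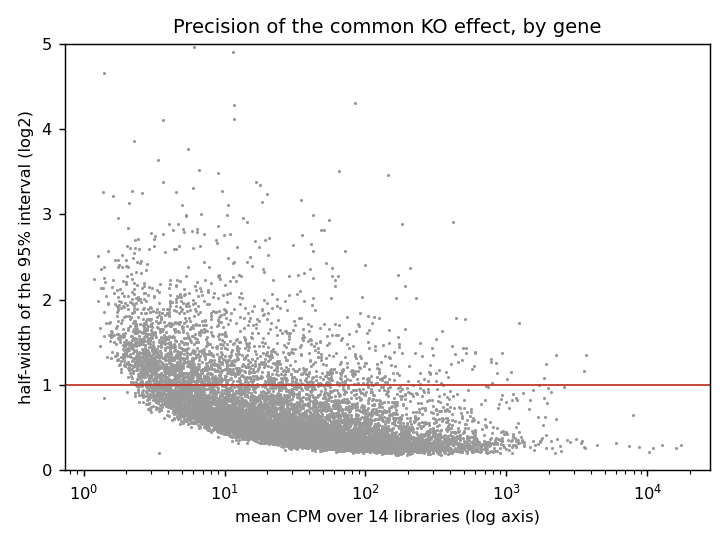
Half-width of the 95% interval of the shared log2 KO/WT value against the mean CPM over 14 libraries (logarithmic axis), 1 point per gene. The red line marks 1 on the log2 scale, below which 9787 of 12113 genes lie; 5 genes above the top of the axis are not drawn.

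A single shared effect describes a gene only if both cell types respond alike, which the interaction of genotype and cell type tests. By edgeR 0 genes passed and 366 (3.02%) had an unadjusted p under 0.05. DESeq2 called 3 interactions, for Fras1, Gnai1 and Pcdha12. Gnai1, an inhibitory G protein alpha subunit, differed in opposite directions. In MEFs Gnai1 stood at 26.2, 27.1, 30.6, 28.1 and 25.3 CPM in the KO lines, against 18.7, 16.9 and 10.7 CPM in the WT lines. Neurosphere values were 9.92, 8.42 and 14.4 CPM in the KO lines, against 17.6, 22.4 and 27.4 CPM in the WT lines. KO lines lay above all WT lines in MEFs and below all WT lines in neurospheres. Gnai1 was named for its small interaction p, and how many of all genes separate in opposite directions was not counted. The log2 value was 0.83 in MEFs and -1.01 in neurospheres, a difference of -1.86 (SE 0.38, edgeR adjusted p = 1.00), and its shared value of 0.01 describes neither.

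Fras1 encodes an extracellular matrix protein of the embryonic basement membrane. In MEFs Fras1 stood at 5.87, 4.11, 3.89, 8.67 and 2.64 CPM in the KO lines, against 1.98, 2.16 and 3.35 CPM in the WT lines. Neurosphere values were 3.31, 0.601 and 3.5 CPM in the KO lines, against 12.6, 30.8 and 94.9 CPM in the WT lines. The difference of the log2 values, neurospheres minus MEFs, was -5.11 (SE 0.99). Tusc1 stood at 0.413, 0 and 1.05 CPM in KO and 4.21, 17.3 and 10.7 CPM in WT neurospheres, against means of 18.2 ± 3.14 CPM in KO and 23.7 ± 5.91 CPM in WT MEFs. Cavin2, a protein of caveolae, stood at 4.96, 9.62 and 11.9 CPM in KO and 3.06, 0.467 and 1.07 CPM in WT neurospheres, and averaged 459 ± 97.4 CPM in KO and 504 ± 119.7 CPM in WT MEFs. None of these differences passed the edgeR test.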

How the data were processed

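RNA of 14 primary mouse lines was sequenced after QuantSeq 3′ FWD library preparation, per the labels' protocols. The deposited files hold expected counts (estimated reads) per transcript and TPM, made by the authors with Salmon 1.1.0, per the submitters' processing notes, which also name edgeR. The transcript set behind them, with its build, is not given in the sources used here. Of 116945 transcripts per file, 115560 matched GENCODE M21 (GRCm38) with their version and 385 without it; the 1000 unmatched ones, 0.251% to 0.425% of reads, were left out. Expected counts were summed to 35449 genes and rounded.

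The test was edgeR 4.0.16 (R 4.3.3): TMM, default low count filter by the 4 groups, robust quasi-likelihood fit with cell type plus genotype, and Benjamini-Hochberg adjustment with a threshold of 0.05. CPM are TMM scaled. Exact two-sided permutation tests used log2 CPM. Sequences come from the GENCODE M21 transcripts. Members, the 38 gene lists and tests were chosen with earlier results of these data known. Lists got no set test. Named genes are H3f3a, H3f3b, the 10 smallest unadjusted p in each direction (at least 5 CPM, no predicted genes), genes without overlap of KO and WT lines in both cell types, up to 3 members per list by p, and the 6 smallest interaction p; Hirip3, Hist1h1c, H2afz, H2afy, Cenpa, Lypla2, Sparcl1 and Pcdha12 were added after their values were seen.

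The fit was tested on simulated counts (3 rounds with 200 changed genes each). Among genes of at least 5 CPM it found 162 of 300 shared 2-fold changes (54%) and 261 of 300 4-fold changes (87%). There were 30 false calls over all rounds. At the rate found, many shared 2-fold changes would be missed. The simulated lines were independent draws without the residual component of the data, and 200 changed genes per round ease the adjusted threshold. The rates may thus be too high for these data. Alternatives were DESeq2 1.42.0, limma 3.58.1 on the deposited TPM with a pseudocount of 1 or 0.1, other scalings and filters, blocks, covariates and single libraries left out. Depths limit precision through counting error, and PCR copies cannot be told apart. P-values measure the spread between these lines.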

Additional observations from a re-analysis of the deposited data

Results flagged for a closer look

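In 64 tests of single KO MEF lines against the other 4, 9 values lay far from the rest. The tests covered the genes named, the H3.3 sum, the H3f3a share, library counts and the mitochondrial share. For values without ties, chance gives about 1 in 20. Meig1, B3galt2 and Sox1 stood at 0.345 CPM and Dbx2 at 1.04 CPM in KO MEFs 1, against 0 in the other KO MEF lines, and Gpr37l1 at 0.347 CPM in KO MEFs 4, against 0. These values are 1 to 3 counts. Any count against 0 in the other 4 lines is flagged by construction. The rate of about 1 in 20 does not apply to them. Nap1l1 stood at 653 CPM in KO MEFs 3, where the others held 992 to 1091 CPM. Ndufb5 stood at 52.8 CPM in KO MEFs 2 (others 73.6 to 77.0 CPM). Syt1, a synaptic vesicle gene, stood at 11.7 CPM in KO MEFs 3 (others 0 to 0.755 CPM), and Laptm5 at 10.3 CPM in KO MEFs 2 (others 1.51 to 3.80 CPM).

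Gnai1 was opposite in the cell types: every KO line lay above every WT line in MEFs (log2 0.83) and below in neurospheres (log2 -1.01). Only the genes named were searched for such opposite separation. The tested difference was -1.86 on the log2 scale and did not pass with edgeR (adjusted p = 1.00), while DESeq2 gave an adjusted p of 0.0278.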

How the results depend on the processing

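H3f3a was called in every fit of the shared effect, with log2 values of -5.92 to -5.54, and in MEFs only (-6.09) and neurospheres only (-5.37). It was the only gene called in each of them except the fit without both WT neurospheres 2 and KO neurospheres 3, added after the data were seen, where 2 genes passed (with Gpr37l1, log2 3.94). The lines left out there are the highest WT and the lowest KO neurosphere line for Gpr37l1. The number of genes at an unadjusted p under 0.05 was 457 without a filter, 172 with the stricter filter, 431 with voom weights, 456 with the first residual component as covariate and 175 in MEFs only, and 215 to 508 with single libraries left out, the highest without KO MEFs 3. With the replicate block it was 135 in the shared fit, and 0 genes passed in MEFs; replicate numbers share no label and lines with the same number had residual correlations of -0.54 to 0.18, so they pair nothing. Interactions called by DESeq2 numbered 3 (Fras1 -5.17, Gnai1 -1.86). For neurospheres alone DESeq2 called 7 genes, and edgeR 0 to 2 with single libraries left out (0 without WT neurospheres 2 or KO neurospheres 1, 2 without WT neurospheres 1). Genes without overlap in both cell types numbered 9 without a filter, 8 to 28 with single libraries left out, 48 without WT MEFs 2 and KO MEFs 3 and 27 without WT neurospheres 2 and KO neurospheres 3; fewer lines make separation easier by construction, and 4 or 5 of the original 5 genes were shared. Sign reversals, all of values that did not pass, were H3f3b (-0.021 in MEFs only; -0.029 to 0.168 with single libraries left out, negative without KO MEFs 3), Aebp2 (0.048 and 0.054) and Ash2l (-0.026 and -0.026) with TPM and a pseudocount of 1 and 0.1, Mcm6 (-0.040 in MEFs only; -0.038 to 0.530 with single libraries left out, negative without KO neurospheres 3; -0.037 also without WT neurospheres 2) and Mcm3 (-0.104 to 0.609, negative without KO neurospheres 3; -0.091 also without WT neurospheres 2); the causes were not tested. Of 1796 values of 58 results under alternatives, 1784 kept direction and side of the threshold. These results were chosen from the same data and did not pass in the main fit. Most could thus hardly change side, and the count is no support for them. The random block on the shared number had a correlation of 0.038. Depth limits genes of a few CPM, whose intervals are wide.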
